A study of Mus with 9 samples.

Results

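The creatine and adenylate kinase energy shuttle was followed through 9 genes of the 55421 in the deposited count table, chosen by name: the creatine kinases Ckm, Ckb, Ckmt1 and Ckmt2, the creatine transporter Slc6a8, the creatine synthesis genes Gatm and Gamt, and the adenylate kinases Ak1 and Ak4. Each of the 9 names has 1 row in the table, and all 9 were among the 19326 genes that passed the filter on low counts.

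Creatine kinases pass a phosphate group between ATP and creatine. The mitochondrial forms charge creatine beside the adenine nucleotide carrier of the inner membrane, and the cytosolic forms use phosphocreatine to rebuild ATP next to myosin and the ion pumps. Adenylate kinases interconvert ADP with ATP and AMP, which recovers ATP and sets the AMP signal read by the AMP-activated kinase. Heart muscle takes creatine from the blood through the transporter SLC6A8, whereas creatine itself is made mainly in kidney and liver by GATM and then GAMT.

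RNA was sequenced in 9 libraries labelled as atria, or left atrium in the design text, with 3 libraries in each of 3 groups. All animals are described as male wild-type C57BL/6J mice aged 8 to 10 weeks. Sham mice had the operation without the ligation and received vehicle (titled CON1-AF to CON3-AF, here Sham 1 to 3). The titles of the MI and MI_ART libraries lack the suffix -AF, so it goes with the group in every comparison with Sham. MI mice had the left anterior descending coronary artery tied permanently, which infarcts the ventricular wall, and received vehicle (MI 2, MI 3 and MI 4). MI_ART mice had the same ligation and received intraperitoneal artesunate, an antimalarial derivative of artemisinin, dissolved in DMSO (MI_ART 1 to 3). The labels conflict on the artesunate schedule: the treatment protocol has 25 mg/kg daily for 7 days from surgery, and the design text has 10 mg/kg every other day from 2 days before surgery to day 7. The growth protocol says rats and speaks of a further group, the extraction is described in 2 ways, and the day of harvest is not given. No label says whether each library is its own animal. The p-values then cover only the spread among these 9 libraries, which may be technical. Below, values per library are listed in the order of library number.

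Total counts ran from 68046341 to 83685313 per library, and Ckmt1, the member with the fewest reads, reached at most 3.37 CPM (read counts relative to the library size after TMM, the trimmed mean of M values). The composition of the libraries differed with the groups. Mitochondrially encoded genes held 40.1% ± 2.80 of the reads of Sham libraries, against 17.3% ± 4.21 for MI and 24.0% ± 1.33 for MI_ART (SD, n = 3). The count ratio of Myl2, a ventricular light chain, to Myl7, its atrial counterpart, ranged from 0.460 in MI 4 to 784 in MI_ART 3. It was 3.64, 17.7 and 6.57 in Sham, 1.87, 2.36 and 0.460 in MI, and 5.45, 1.22 and 784 in MI_ART. Myl2 had more counts than Myl7 in every library but MI 4, although all are labelled as atria. The ratio was higher in every Sham library than in every MI library. Its part in the differences between those groups was not tested. MI_ART 3 had Myl7 at only 1.96 CPM, which goes against its atrial label, and MI 4 differed more from its 2 group mates than any other library did from its own. Member calls that changed without 1 or both of these 2 libraries are given with and without them. In bulk tissue, fewer cells of a type and less RNA per cell cannot be told apart.

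In MI against Sham, both creatine kinases of striated muscle and 1 adenylate kinase fell, and the brain-type kinase and both synthesis genes rose. Ckm, Ckmt2 and Ak1 were lower, Ckb, Gatm and Gamt were higher, and Slc6a8, Ckmt1 and Ak4 did not pass. The 6 called genes of 9 stand against 33.1% of all tested genes called in this comparison, 18.8% higher and 14.3% lower. The 3 MI libraries and the 3 Sham libraries did not overlap for 7 of 9 members, against 48.9% of all tested genes. Of the members, 3 were higher in every MI library (25.7% of all tested genes) and 4 were lower (23.2%). Overlap of single members is read from TMM-scaled CPM throughout and depends on that scaling. The median log2 fold change was -0.47 over the 9 members and 0.04 over all tested genes.

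**Figure D1:**
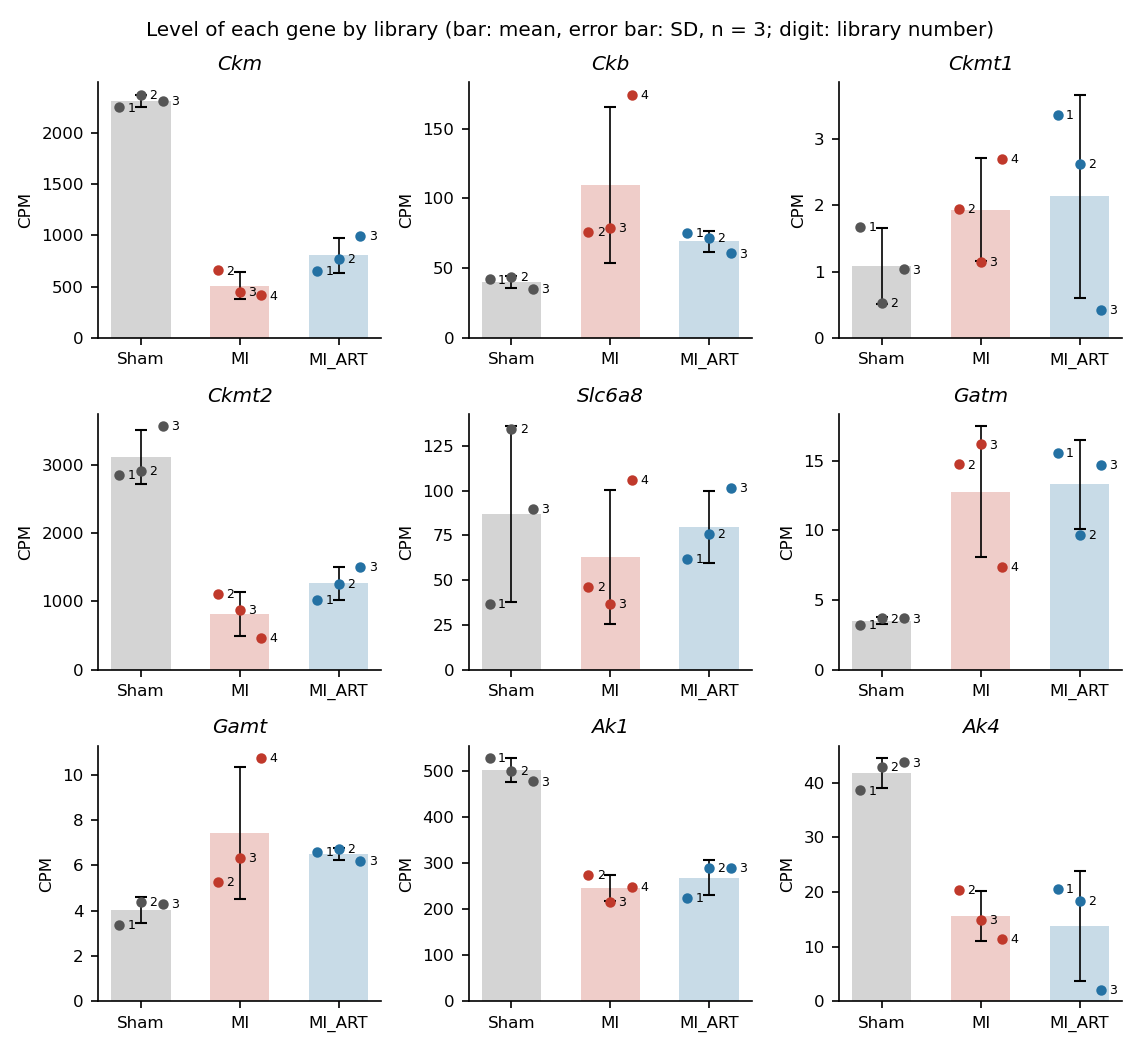
Level of each of the 9 genes in CPM (vertical axis, each panel from 0) in the 3 libraries of Sham, MI and MI_ART, with the bar at the mean, the error bar 1 SD and a digit for the library number. Ckm, Ckmt2, Ak1 and Ak4 lie lower in all 6 infarcted libraries than in all 3 Sham libraries, Ckb, Gatm and Gamt lie higher, and Ckmt1 and Slc6a8 overlap.

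Ckm encodes the muscle form of cytosolic creatine kinase, which binds to the myofibril and recharges ATP at the myosin head (chromosome 7, 19411094 to 19421583, RefSeq annotation of GRCm38.p6, as are all positions here). Ckm stood at 2249, 2373 and 2311 CPM in Sham, at 658, 451 and 414 in the MI libraries and 650, 767 and 995 in the MI_ART libraries. The Sham libraries were close together, and every infarcted library was below all of them. Ckm fell by 2.19 on the log2 scale in MI against Sham (SE 0.23, edgeR adjusted p = 0.000166), which is 4.55-fold lower. The gene overlaps A930016O22Rik, which had only 24 to 79 counts per library.

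Ckb, the brain-type cytosolic kinase, is the form of embryonic heart, smooth muscle, neurons and many other cells (chromosome 12, 111669355 to 111672338). Ckb stood at 41.9, 43.5 and 35.3 CPM in Sham, at 75.8, 78.6 and 174 in the MI libraries and 75.2, 71.7 and 60.6 in the MI_ART libraries. All infarcted libraries were above all Sham libraries, and MI 4 stood far above the rest. Ckb rose by 1.45 on the log2 scale in MI against Sham (SE 0.31, adjusted p = 0.00558), a 2.72-fold difference. Without MI 4 the rise was 0.94, with an adjusted p of 0.00105.

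The pair moved in opposite directions, so their balance could be read inside each library, free of any scaling. Counts of Ckm per count of Ckb were 53.6, 54.5 and 65.5 in Sham, 8.69, 5.73 and 2.38 in the MI libraries and 8.65, 10.7 and 16.4 in the MI_ART libraries. This count ratio, which is not corrected for gene length, was lower in every infarcted library than in every Sham library, and lowest in MI 4. Ckb over Ckm was 11.7-fold higher in MI than in Sham (log2 difference 3.55, two-sided exact permutation p = 0.1, the smallest that 3 against 3 allows; 0.15 after adjustment over 6 ratios). Over the 6 infarcted libraries against the 3 Sham libraries the ratio was 7.67-fold higher (log2 difference 2.94, exact permutation p = 0.0238, the smallest possible; 0.0714 adjusted), so it did not pass the correction. Without MI 4 the log2 difference was 3.03 in MI against Sham and 2.61 in the infarcted libraries against Sham. The ratio was higher in 6 of 6 infarcted libraries.

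Ckmt2 encodes the sarcomeric mitochondrial kinase, the form of striated muscle (chromosome 13, 91853386 to 91876923). Ckmt2 stood at 2852, 2910 and 3559 CPM in Sham, at 1105, 875 and 462 in the MI libraries and 1018, 1257 and 1503 in the MI_ART libraries. Sham did not overlap the infarcted libraries, and MI 4 was the lowest library. Ckmt2 fell by 1.93 on the log2 scale in MI against Sham (SE 0.30, adjusted p = 0.00118), which is 3.82-fold lower. Without both MI 4 and MI_ART 3, Ckmt2 stood at -1.65 (adjusted p = 0.000873). Its ratio to Ckm differed by only 0.22 on the log2 scale between infarcted and Sham libraries (exact permutation p = 0.310). Ckm and Ckmt2 together made up 0.374% ± 0.0164 of the reads of Sham libraries, against 0.164% ± 0.0492 for MI and 0.239% ± 0.0496 for MI_ART (SD, n = 3).

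Ckmt1 encodes the ubiquitous mitochondrial kinase of brain and epithelia (chromosome 2, 121357773 to 121363737). Ckmt1 stood at 1.68, 0.533 and 1.03 CPM in Sham, at 1.95, 1.15 and 2.70 in the MI libraries and 3.37, 2.63 and 0.419 in the MI_ART libraries. The groups overlapped, with the highest and the lowest library both in MI_ART. The log2 difference in MI against Sham was 0.84 (SE 0.70, adjusted p = 0.392), and it was 1.30 without Sham 1 and 0.51 without Sham 2 or without MI 4, with no call. The gene overlaps Strc, which had 0 to 13 counts per library.

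Slc6a8 encodes the sodium- and chloride-dependent creatine transporter of the plasma membrane (chromosome X, 73673133 to 73682502). Slc6a8 stood at 36.6, 135 and 89.8 CPM in Sham, at 46.1, 36.7 and 106 in the MI libraries and 61.9, 75.7 and 102 in the MI_ART libraries. Sham 1 and Sham 2 held the lowest and the highest value of all 9 libraries, so the groups overlapped fully. The log2 difference in MI against Sham was -0.47 (95% interval -1.56 to 0.63, adjusted p = 0.503), an interval that covers both a fall and a rise. The value rested on single libraries: it was -0.83 without Sham 1, -0.0062 without Sham 2, -0.29 without MI 2, -0.19 without MI 3 and -1.07 without MI 4, none of them called. Its sign turned with total count scaling (0.38) and with scaling to heart muscle genes (0.72).

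Gatm encodes glycine amidinotransferase, the mitochondrial enzyme that makes guanidinoacetate in the rate-limiting step of creatine synthesis (chromosome 2, 122594473 to 122611277). Gatm stood at 3.21, 3.67 and 3.68 CPM in Sham, at 14.7, 16.2 and 7.39 in the MI libraries and 15.6, 9.68 and 14.7 in the MI_ART libraries. Every infarcted library exceeded every Sham library, and MI 4 was the lowest of them. Gatm rose by 1.86 on the log2 scale in MI against Sham (SE 0.31, adjusted p = 0.00166), which is 3.63-fold.

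Gamt encodes guanidinoacetate methyltransferase, which completes creatine (chromosome 10, 80258151 to 80261025). Gamt stood at 3.37, 4.38 and 4.31 CPM in Sham, at 5.25, 6.31 and 10.7 in the MI libraries and 6.59, 6.73 and 6.19 in the MI_ART libraries. Sham did not overlap the infarcted libraries, but the gap between Sham 2 and MI 2 was small and MI 4 stood above the others. Gamt rose by 0.89 in MI against Sham (SE 0.28, adjusted p = 0.0340), which is 1.85-fold. That call depended on single libraries: the adjusted p was 0.111, 0.0656 and 0.0709 without Sham 1, Sham 2 or Sham 3, 0.0518 without MI_ART 1 and 0.0514 without MI_ART 3. Without MI 4 the rise was 0.52 (adjusted p = 0.0649).

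Ak1 encodes the cytosolic adenylate kinase of muscle and nerve (chromosome 2, 32621758 to 32635058). Ak1 stood at 528, 500.4 and 477 CPM in Sham, at 274, 217 and 249 in the MI libraries and 224, 290.0 and 289.6 in the MI_ART libraries. In TMM-scaled CPM the Sham libraries lay well above the 6 infarcted ones. Ak1 fell by 1.03 on the log2 scale in MI against Sham (SE 0.17, adjusted p = 0.00146), which is 2.04-fold lower. That fall depended on the scaling: with total counts the difference was -0.19 (edgeR adjusted p = 0.395). Ak1 over Ckm was higher in 6 of 6 infarcted libraries than in any Sham library (log2 difference 0.91, exact permutation p = 0.0238), but did not pass the correction over 6 ratios (adjusted p = 0.0714).

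Ak4 encodes an adenylate kinase family member of the mitochondrial matrix that is induced by low oxygen in many cells (chromosome 4, 101416478 to 101467771). Ak4 stood at 38.6, 43.0 and 43.8 CPM in Sham, at 20.4, 14.9 and 11.5 in the MI libraries and 20.6, 18.4 and 2.13 in the MI_ART libraries. All infarcted libraries were below all Sham libraries, and MI_ART 3 was far below the rest. The log2 difference in MI against Sham was -1.42 (SE 0.62) and did not pass (adjusted p = 0.104), although the groups did not overlap. Without MI_ART 3, which enters the shared estimate of spread, the same comparison passed with an adjusted p of 0.00218. Without both MI 4 and MI_ART 3 the difference was -1.24 (adjusted p = 0.0016). With total counts it was -0.58 (adjusted p = 0.442), and with scaling to heart muscle genes -0.39 (0.596).

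**Figure D2:**
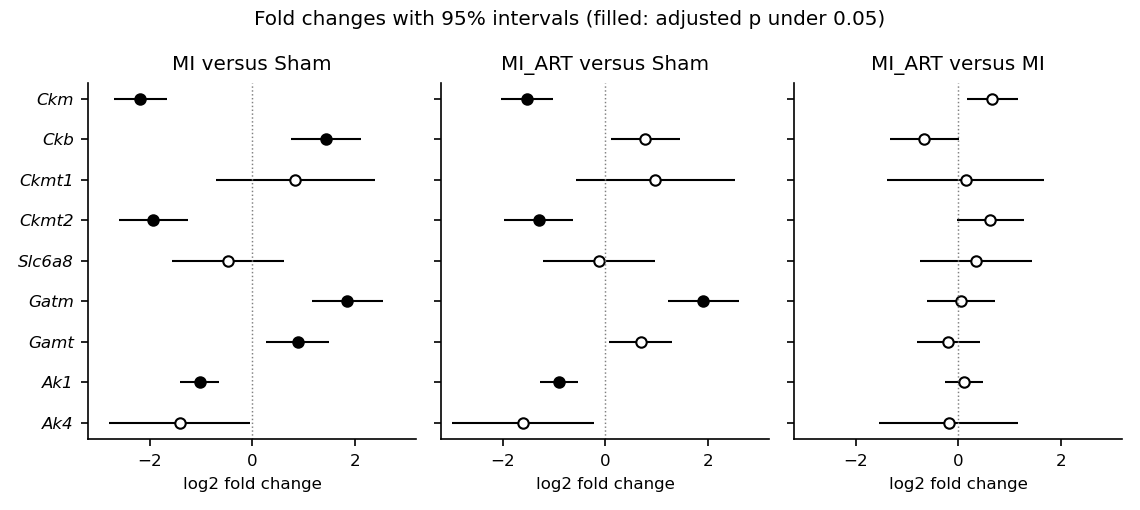
Log2 fold change of each gene with its 95% interval in 3 comparisons, with filled points where the edgeR adjusted p was under 0.05. Ckm, Ckmt2, Ak1 and Gatm are filled in both comparisons with Sham, and no point is filled in MI_ART against MI.

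In MI_ART against Sham, Ckm, Ckmt2 and Ak1 were lower and Gatm was higher. The 4 called genes of 9 (1 higher, 3 lower) stand against 20.3% of all tested genes called, 12.9% higher and 7.41% lower. The libraries did not overlap for 7 of 9 members, against 48.2% of all tested genes (3 members all higher, against 25.4%, and 4 all lower, against 22.8%). Ckm fell by 1.52 on the log2 scale (SE 0.23, adjusted p = 0.00151), Ckmt2 fell by 1.30 (adjusted p = 0.0136) and Ak1 fell by 0.91 (adjusted p = 0.00491). Gatm rose by 1.92 (adjusted p = 0.00254).

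The other genes did not pass in MI_ART against Sham. The log2 difference was 0.78 for Ckb (adjusted p = 0.0995), 0.69 for Gamt (0.109), -1.61 for Ak4 (0.0976), 0.98 for Ckmt1 and -0.12 for Slc6a8. Libraries that stand apart bore on these calls. Without MI 4, Ckb passed with an adjusted p of 0.00183 and Gamt with 0.0156. Without MI_ART 3, Ak4 stood at -1.10 and passed (adjusted p = 0.0249), and without MI_ART 1, Ckmt1 stood at 0.49. Slc6a8 was -0.49 without Sham 1, 0.34 without Sham 2, 0.03 without MI_ART 1, -0.045 without MI_ART 2 and -0.34 without MI_ART 3, never called. Without both MI 4 and MI_ART 3, Ckb (0.87), Gamt (0.73) and Ak4 (-1.10) all passed, with adjusted p of 0.00316, 0.0369 and 0.00376. The fall of Ckmt2 was lost without Sham 3 (adjusted p = 0.0518) or without MI_ART 1 (0.0637).

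The mean of both infarcted groups against Sham, which shares its libraries with the comparisons above, called 7 of 9 members, 3 higher and 4 lower, against 33.3% of all tested genes (18.3% higher, 14.9% lower). The 6 infarcted libraries did not overlap the Sham libraries for 7 members, against 38.6% of all tested genes; 3 members lay higher (20.5%) and 4 lower (18.1%). Ak4 was the addition, at -1.51 (adjusted p = 0.0430), a call that held in 8 of 18 other settings. It was lost with total counts (-0.73, adjusted p = 0.253) and with scaling to heart muscle genes (-0.58, 0.351). It was also lost without Sham 1 (adjusted p = 0.0866), Sham 2 (0.104), Sham 3 (0.114), MI 3 (0.0752), MI 4 (0.0729) or MI_ART 2 (0.0537). Gamt, at 0.79, was lost without Sham 1 (0.127), Sham 2 (0.0715), Sham 3 (0.0778), MI_ART 1 (0.0631), MI_ART 2 (0.0513) or MI_ART 3 (0.0553). Without Sham 3 the count of higher members was 1, since Ckb (adjusted p = 0.0572) and Gamt no longer passed.

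**Figure D3:**
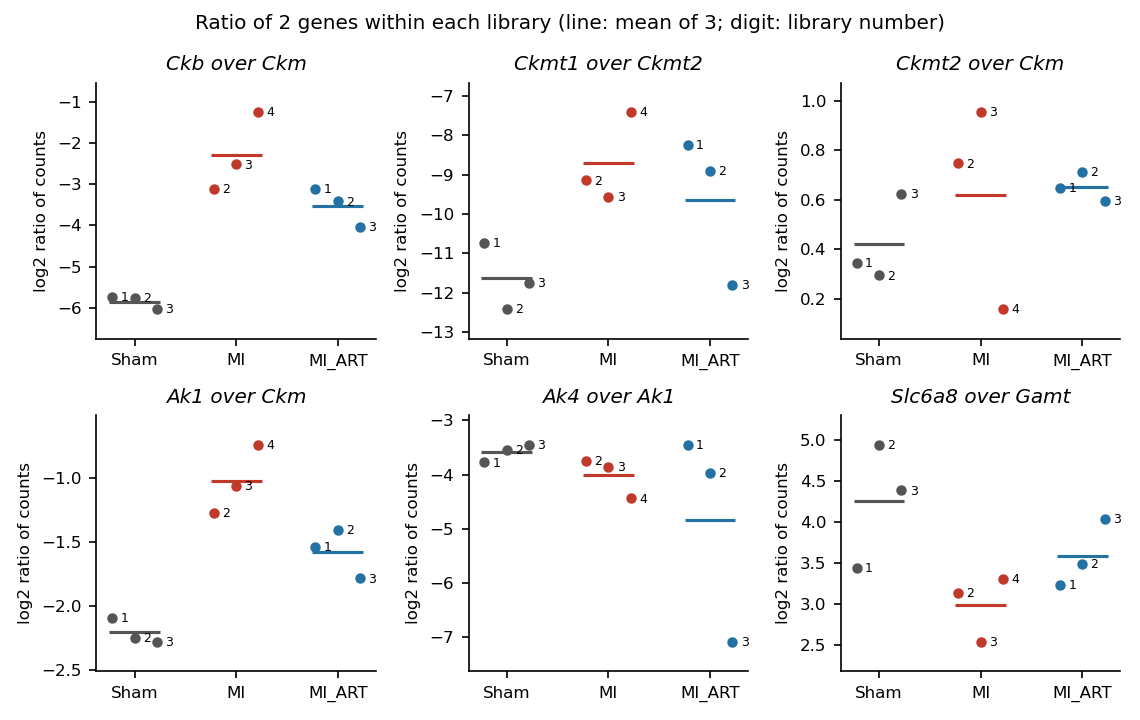
Log2 ratio of counts of 2 members inside each library (vertical axis), for 6 ratios, with points for libraries and a line at the group mean. Ckb over Ckm and Ak1 over Ckm are higher in all 6 infarcted libraries than in the 3 Sham libraries, and Ckmt2 over Ckm overlaps.

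Artesunate was compared with vehicle after infarction in MI_ART against MI. No member of the 9 passed the edgeR test, against 0.0103% of all tested genes (2 of 19326). With an unadjusted p under 0.05 there was 1 member by edgeR and 3 by DESeq2, and none passed after adjustment by DESeq2. Over all 19326 tested genes, 1346 had an unadjusted edgeR p under 0.05 in this comparison. Ckm was the member with the smallest p: its log2 difference was 0.66 (95% interval 0.17 to 1.16, unadjusted p = 0.0141, adjusted p = 0.685), and MI 2 (658 CPM) lay above MI_ART 1 (650 CPM). Of the infarcted libraries MI_ART 3 was the highest for Ckm (995 CPM) and MI 4 the lowest (414 CPM). Without both, the difference of Ckm was 0.35 (edgeR adjusted p = 0.966).

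The log2 difference in MI_ART against MI was 0.63 for Ckmt2 (95% interval -0.03 to 1.29, adjusted p = 0.724) and -0.66 for Ckb (-1.34 to 0.01, adjusted p = 0.716). Without both MI 4 and MI_ART 3 it was 0.20 for Ckmt2 and -0.07 for Ckb. Ak1 had the narrowest interval of the 9, -0.25 to 0.49. Ckb was the only 1 of 9 members whose libraries did not overlap, all lower with artesunate. Of all tested genes 13.9% did not overlap, 7.38% higher and 6.52% lower. The closest libraries were MI 2 at 75.8 CPM and MI_ART 1 at 75.2 CPM. Without MI 4 the difference of Ckb was -0.16. Ckb over Ckm differed by -1.23 on the log2 scale (exact permutation p = 0.2, 0.4 adjusted over 6 ratios), and MI 2 and MI_ART 1 had nearly the same value. Ak1 over Ckm was the ratio of the 6 that did not overlap: its log2 values were -1.27 to -0.74 in MI and -1.78 to -1.40 in MI_ART, a difference of -0.55 (exact permutation p = 0.1, the smallest possible; 0.4 adjusted). A p that misses the threshold does not show that these genes were alike in both groups.

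The size of the falls and rises moved with the scaling. With total counts in place of TMM, the median log2 change of all tested genes in MI against Sham moved to 0.88, and the share of called genes that were higher went from 56.7% to 93.7%. In MI_ART against Sham the median moved to 0.75 and that share went from 63.5% to 98.5%. Under total counts Ckm (-1.35) and Ckmt2 (-1.09) still fell in MI against Sham and Ckb (2.30), Gatm (2.70) and Gamt (1.75) still rose, but Ak1 stood at -0.19 (adjusted p = 0.395). Of 14 genes of heart muscle sarcomeres and calcium release, 10 were themselves lower in MI against Sham with TMM factors (median log2 -0.89). With total counts 2 of these 14 were called lower (median -0.04), so their fall also followed the scaling. Relative to these 14 genes, Ckm was at -1.14 and Ckmt2 at -0.93, both called lower, whereas Ak1 was at 0.07 (adjusted p = 0.805). Ckmt1 passed as higher in MI against Sham with this scaling (2.03, adjusted p = 0.0406) but not with total counts (1.69, adjusted p = 0.0677). In infarcted against Sham, Ckmt1 passed with both (1.71, adjusted p = 0.0473 with total counts; 1.94, adjusted p = 0.0361 relative to the heart muscle genes).

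In MI_ART against Sham the same 2 scalings kept the fall of Ckm but ended that of Ckmt2, at -0.55 (adjusted p = 0.131) with total counts and -0.52 (0.0711) relative to the heart muscle genes. Ak1 was lost too, at -0.17 and -0.13, and Ckb and Gamt passed as higher.

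**Figure D4:**
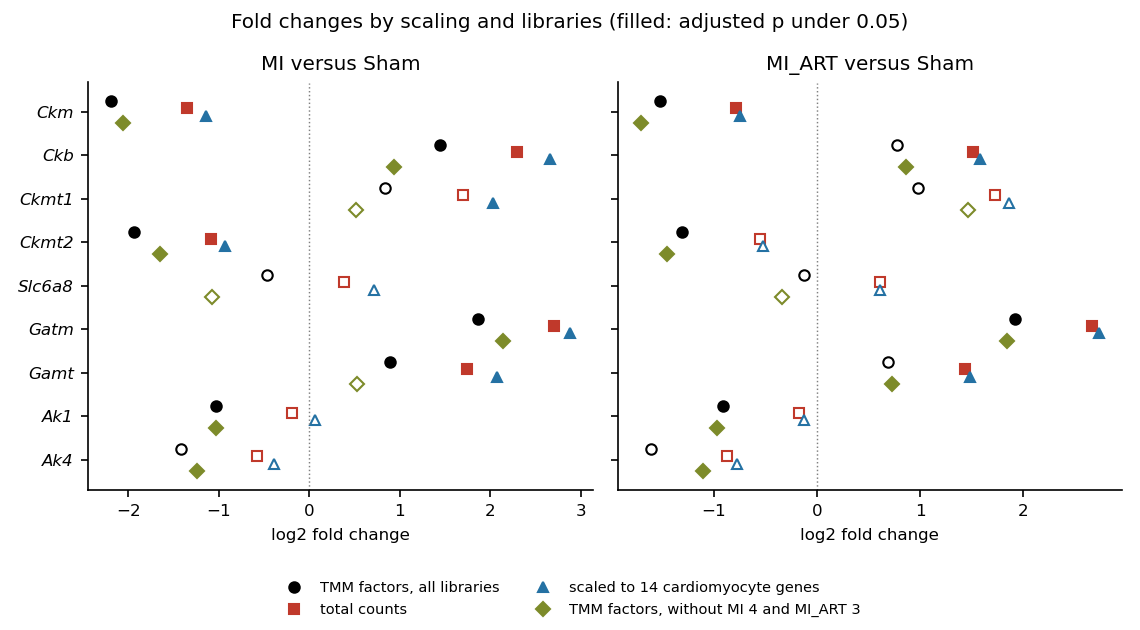
Log2 fold change (horizontal axis) of each gene in MI against Sham and in MI_ART against Sham under 3 scalings and without MI 4 and MI_ART 3, filled where the adjusted p was under 0.05. Total counts and heart muscle scaling move every gene to the right; in MI against Sham Ckm and Ckmt2 stay filled on the left and Ak1 moves to about 0.

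Markers of other cells moved with the groups. In TMM-scaled CPM, the summed level of the 14 heart muscle genes was 35334 to 41701 in Sham, 18641 to 24861 in MI and 18595 to 25287 in MI_ART. Sham did not overlap the rest on this scale. With total counts only 2 of the 14 were called lower in MI against Sham, as given above. Of 6 ventricular genes 4 were lower in MI than in Sham (summed 8187 to 9118 CPM in Sham, 1773 to 3325 in MI and 3218 to 4804 in MI_ART). Of 7 atrial genes edgeR called 0 (2 at an unadjusted p under 0.05, 1 by DESeq2; sums 1775 to 7376, 13462 to 25125 and 1320 to 12420 CPM), and Bmp10, a growth factor of atrial muscle, reached 42.0 CPM in MI 4. Nppa alone held most of each atrial sum, with means of 3340 CPM in Sham, 14530 in MI and 4454 in MI_ART. In the same order Myl7 had means of 522, 596 and 326 CPM, and Myl4 879, 1911 and 583 CPM. The sums therefore do not measure the amount of atrial muscle. These muscle markers stand beside the falls of Ckm, Ckmt2 and Ak1, and their part in them was not tested beyond the scaling above.

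Markers of cells other than heart muscle stand beside the rises of Ckb, Gatm and Gamt. MI against Sham had 4 of 6 fibroblast genes up and 1 down, with summed levels of 1501 to 1678 CPM in Sham, 7504 to 8854 in MI and 6589 to 7865 in MI_ART. All 6 macrophage and monocyte genes were higher, with sums of 269 to 420, 2259 to 2539 and 1508 to 2986 CPM. Smooth muscle, which uses Ckb, had 0 of 6 genes called by edgeR, 0 at an unadjusted p under 0.05 and 0 by DESeq2, and its sums overlapped (280 to 1311 CPM in Sham, 428 to 1586 in MI and 465 to 1016 in MI_ART). Of 7 tested neuron and glia genes 0 were called by edgeR in MI against Sham, 5 had an unadjusted p under 0.05, and DESeq2 called 1 higher and 2 lower. All 5 neutrophil genes were higher in MI than in Sham (median log2 6.18; sums 1.32 to 1.44 CPM in Sham, 46.3 to 108 in MI and 17.7 to 86.0 in MI_ART), as were all 5 genes of proliferating cells (median 6.04; 2.33 to 7.43, 168 to 272 and 117 to 190 CPM). Of 8 tested skeletal muscle genes 2 were higher (29.9 to 103 CPM in Sham, 284 to 362 in MI and 25.3 to 210 in MI_ART), while the fast myosins Myh1, Myh2 and Myh4 were at most 0.194 CPM in every library. Myl1 alone held most of each skeletal muscle sum, with means of 60.7 CPM in Sham, 235 in MI and 83.4 in MI_ART. The part of these cells in the rises was not tested.

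**Figure D5:**
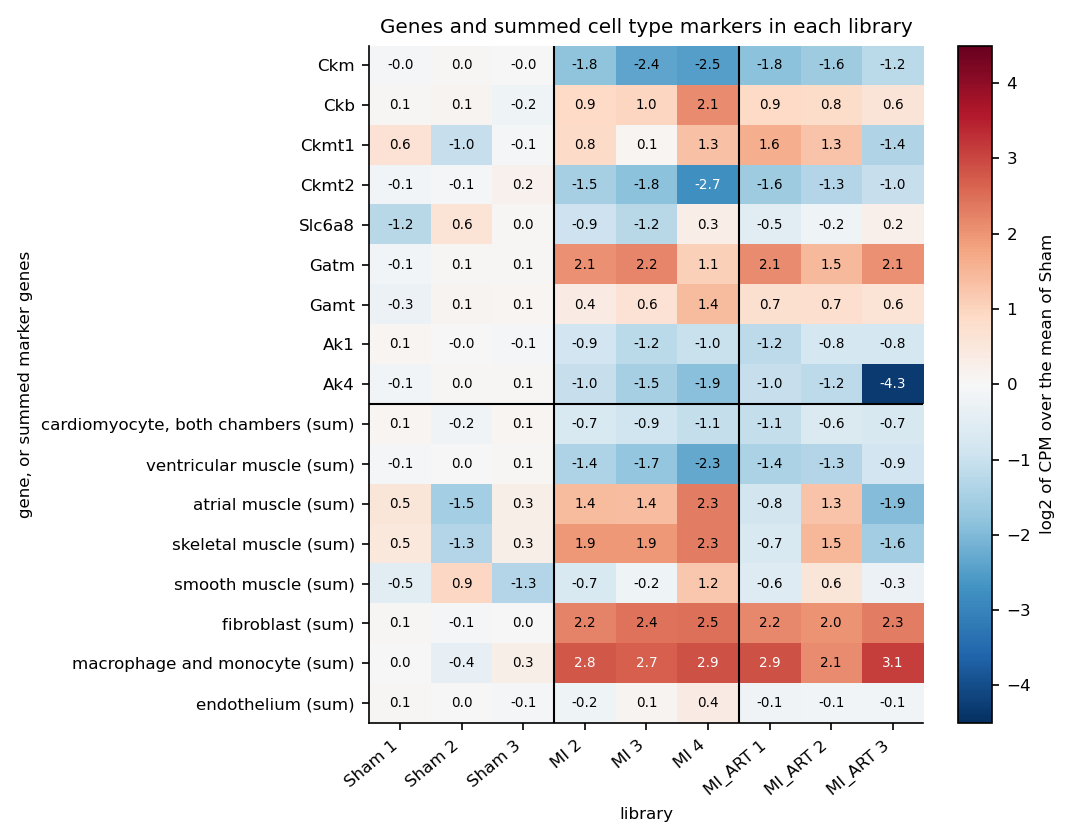
Log2 level of each gene and of summed marker lists in each library relative to the Sham mean, as a colour scale. Ckm, Ckmt2, Ak1 and Ak4 are low in all 6 infarcted libraries, with MI_ART 3 lowest for Ak4, while the fibroblast and macrophage rows are high in the same libraries.

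The genes around the shuttle were read from lists chosen by function. Their counts are read against the 18.8% of all tested genes called higher and 14.3% called lower, and no list is called particular from them. Of the other adenylate kinases, 1 rose and 1 fell in MI against Sham among 5 tested (median log2 0.26, with 0.04 over all tested genes). Ak3, the GTP-dependent enzyme of the mitochondrial matrix, fell by 1.02 (adjusted p = 0.00283), from 168 ± 17.3 to 82.9 ± 18.5 CPM (SD, n = 3). Ak5 was called higher from 5, 0 and 0 counts in Sham, and Ak8 was not called (adjusted p = 0.0873). Of 10 other nucleotide kinases edgeR and DESeq2 each called 2 higher and 0 lower (median 0.11), a share near that of all genes: Nme1, a nucleoside diphosphate kinase, rose by 1.91, from 20.0 ± 3.07 to 75.2 ± 25.1 CPM, and Dtymk, the thymidylate kinase of DNA synthesis, rose by 0.71. The genes of proliferating cells given above were higher in the same libraries, and their part in these rises was not tested.

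Mitochondrial export of ATP, on which Ckmt2 draws, had 5 of 11 genes lower and 2 higher in MI against Sham (median -0.95). Slc25a4, the adenine nucleotide carrier of heart and muscle, fell by 1.38, from 4904 ± 386 to 1884 ± 343 CPM (SD, n = 3), and Slc25a42, a coenzyme A carrier, fell by 2.11. Slc25a25, a calcium-regulated ATP-magnesium carrier, rose by 1.41, from 4.33 ± 0.317 to 11.5 ± 0.694 CPM.

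AMP sensing and removal had 3 of 15 tested genes higher, a share near that of all genes, and 5 lower (median -0.03). Adk, adenosine kinase, fell by 1.34, from 205 ± 28.0 to 80.8 ± 23.6 CPM. Ada, adenosine deaminase, rose by 3.86, from 0.808 ± 0.263 to 11.7 ± 5.84 CPM, and Ampd2, an AMP deaminase of non-muscle tissue, rose by 0.93.

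Users of ATP in muscle had 3 of 11 genes lower and 1 higher (median -0.16). Myh6, the fast cardiac myosin heavy chain, fell by 1.42, from 22591 ± 2196 to 8420 ± 1884 CPM (SD, n = 3). Of 15 regulators of muscle energy genes, edgeR called 7 lower and 0 higher (median -0.88), with 11 at an unadjusted p under 0.05, and DESeq2 called 8 lower and 1 higher. Among those that fell were Esrrg (-2.07), an orphan receptor that drives mitochondrial genes, Epas1 (-1.24), a hypoxia factor, and Tfam (-0.93), which maintains mitochondrial DNA. These counts followed the scaling: with total counts, higher and lower genes numbered 4 and 0 of the adenylate kinases, 9 and 0 of the nucleotide kinases, 5 and 2 of the ATP export genes, 8 and 0 of the AMP genes, 5 and 3 of the ATP users, and 4 and 1 of the regulators. In MI_ART against MI edgeR called 0 of the 67 tested genes of these 6 lists, and 8 had an unadjusted p under 0.05. DESeq2 called 2 of the 67, Slc25a42 at 1.05 (adjusted p = 0.0391) and Prkag2, a regulatory subunit of the AMP-activated kinase, at -1.23 (adjusted p = 0.0125). Prkag2 is named here after its value was seen.

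Genes whose log2 CPM was most alike to a member over the 9 libraries were found among protein-coding genes with a mean of at least 10 CPM. The points are 9 libraries that share depth and composition with every gene. With the group means removed, r stayed between 0.889 (Fgfr1op2 with Ak4) and 0.990 (Acadvl with Ckm). The genes were picked for a high r in these same libraries, so this second r is no separate support. For Ckm they were Eci1 (r = 0.997), Acadvl, Slc25a11, Pfkm and Hsd17b4, of which Eci1, Acadvl and Hsd17b4 act in fatty acid oxidation and Pfkm is muscle phosphofructokinase. For Ckmt2 they were Car14 (r = 0.998), Lrrc39, Cat, Acadm and Lmod3. For Ckb they included Cyb5r3 (r = 0.995), Sema3f, Galk1 and Spryd3. Each of these was highest in MI 4, as Ckb was, with Cyb5r3 at 317 CPM against 61.7 to 162 CPM elsewhere. For Ak4 they were Rab7 (r = 0.968), Ntn4, Epn2, Fgfr1op2 and Phc3 (r = 0.939). Each of these was lowest in MI_ART 3, as Ak4 was. Rab7 stood there at 132 CPM against 221 to 283 CPM elsewhere, and Phc3 at 3.66 CPM against 13.0 to 32.7 CPM.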

How the data were processed

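The authors deposited raw counts of reads per Ensembl gene in 9 libraries, without normalization. The submitters' processing notes list the build GRCm38 and the tools DESeq 1.8.3, featureCounts 1.5.0-p3 and HISAT, the last without a version, and state no role or order. For strand and for reads that map to several places the setting was not given in the sources used here, so counts of overlapping genes are uncertain. The 9 per-sample files equal the series table (largest difference 0).

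Counts were fitted in R 4.3.3 with edgeR 4.0.16 (TMM factors, filterByExpr on the 3 groups, quasi-likelihood F tests, all 9 libraries with 1 mean per group). P-values were Benjamini-Hochberg adjusted over all 19326 tested genes, and a gene was called at an adjusted p under 0.05. Adjusted p-values are from this fit unless another tool is named. Its script was tested on simulated data. CPM is over the TMM-scaled library size, and SE and 95% intervals come from the fit. Ratios of 2 members were taken from raw counts per library and compared by two-sided exact permutation tests. Reads per kilobase were planned for them, but no transcript lengths were used; a constant length cancels from a difference between groups. No level is compared between genes per length.

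The 9 genes, the gene lists and the tests were chosen with earlier results of these data known. All 9 genes are named whatever their result, as are the 3 genes of each pathway list with the smallest p in MI against Sham and, for 4 members, the 5 most alike genes. A few genes that these rules chose are not reported here; counts over lists include them. Positions come from a RefSeq gene table of GRCm38.p6, which matched 9 of 9 members. Alternatives were other scalings, filters, DESeq2 1.42.0, a replicate block, fits of 2 groups, and leaving out libraries.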

Additional observations from a re-analysis of the deposited data

How the results depend on the processing

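In MI against Sham, Ckm, Ckmt2, Ckb and Gatm passed under all 19 alternatives run. Over 675 alternative values of single members, 586 kept direction and side of the threshold, 31 turned direction (none of them called), 23 newly passed and 35 no longer passed. The cause of these changes was not tested.

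In MI_ART against Sham the count of higher members, 1, became 3 with total counts, with scaling to heart muscle genes, with only the 2 groups compared and without both MI 4 and MI_ART 3, and ranged from 1 to 3 when single libraries were left out (3 without MI 4). The count of lower members, 3, became 1 with total counts and with heart muscle scaling (2 to 4 without single libraries). In infarcted against Sham the lower members, 4, became 2 with total counts and with heart muscle scaling, and the higher members, 3, became 4 with both. Without single libraries the higher members ranged from 1 (without Sham 3) to 3.

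A pairing of libraries by replicate number was not seen: deviations of 7 same-numbered pairs correlated between -0.0354 and 0.0932. Pairs with different numbers were not compared, so this check cannot show that pairing is absent. With the replicate number as a block, 3 members were higher in MI_ART against Sham, Slc6a8 stood at -1.26 in MI against Sham (adjusted p = 0.0302), Gamt lost its call there (adjusted p = 0.131) and Ak4 lost its call in infarcted against Sham (0.0734). The block changed 9 of 36 member results. Replicate number 4 occurs only in MI 4, so the block gave that library its own term and took it out of the MI mean. The block fit thus also left out MI 4, and its changes cannot be read as an effect of pairing alone.

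Directions turned as follows, on the log2 scale. With total counts, Slc6a8 was 0.38 in MI against Sham, 0.61 in MI_ART against Sham and 0.49 in infarcted against Sham, and Gatm was -0.038 in MI_ART against MI. With heart muscle scaling, Slc6a8 was 0.72, 0.61 and 0.67 in those 3 comparisons with Sham and -0.11 in MI_ART against MI. With that scaling Ak1 was 0.066 in MI against Sham, and in MI_ART against MI Ckmt1 was -0.17, Gatm -0.14 and Ak1 -0.19. With the replicate block, Ckmt1 was -0.14, Gatm -0.27 and Gamt 0.23 in MI_ART against MI, and Slc6a8 was 0.046 in MI_ART against Sham. Without both MI 4 and MI_ART 3, Gatm was -0.29, Gamt 0.20 and Ak4 0.14 in MI_ART against MI.

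When single libraries were left out, MI_ART against MI ranged from -0.34 to 0.63 for Ckmt1 (-0.12, -0.34 and -0.03 without MI 3, MI_ART 1 or MI_ART 2), from -0.22 to 0.27 for Gatm (-0.22, -0.07 and -0.02 without MI 4, MI_ART 1 or MI_ART 3), from -0.39 to 0.17 for Gamt (0.17 without MI 4) and from -0.60 to 0.32 for Ak4 (0.06 without MI 2, 0.32 without MI_ART 3). Slc6a8 ranged from -0.49 to 0.34 in MI_ART against Sham (0.34 without Sham 2, 0.03 without MI_ART 1) and from -0.66 to 0.17 in infarcted against Sham (0.17 without Sham 2). Of the ratios in MI_ART against MI, Ckmt2 over Ckm ranged from -0.20 (without MI 4) to 0.20, Ckmt1 over Ckmt2 from -1.64 to 0.14 (without MI_ART 3) and Ak4 over Ak1 from -1.52 to 0.30 (without MI_ART 3).

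Counts over all genes moved more. In MI against Sham, 3631 higher and 2768 lower genes became 9528 and 644 with total counts and 10520 and 469 with heart muscle scaling. In MI_ART against Sham, 2488 and 1433 became 8032 and 124, and 6746 and 107, and the lower genes ranged from 482 to 2934 without single libraries. In infarcted against Sham, 3546 and 2889 became 9721 and 501, and 10149 and 394. In MI_ART against MI, DESeq2 called 52 higher and 41 lower genes, where edgeR called 0 and 2.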
